A study of Homo sapiens with 8 samples.

Results

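The 9 genes described here encode enzymes that make pyrimidine nucleotides and supply the deoxynucleotides of DNA: CAD, DHODH, UMPS, CTPS1, UCK2, TYMS, TK1, RRM1 and RRM2. They were chosen by gene symbol, for their known roles, out of 61806 genes in the deposited table, and all 9 held enough reads to be tested. Earlier results of these data were known when the genes were chosen. mRNA came from N/TERT-1 cells, wild-type immortalized human epidermal keratinocytes, of which 4 samples received ethanol (the solvent, control) and 4 received O/A for 4 hours. O/A joins oligomycin, an inhibitor of the mitochondrial ATP synthase, with antimycin A, an inhibitor of complex III of the respiratory chain. The 4 samples of a condition came from 4 independent experiments, and all 8 come from 1 cell line grown in serum-free medium, so the values describe this line.

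Uridine monophosphate (UMP) is the parent of all pyrimidine nucleotides and can be built from small precursors or recovered from uridine. The building route runs through CAD and UMPS in the cytosol and, between them, through DHODH in the inner mitochondrial membrane. DHODH hands its electrons to ubiquinone, complex III then re-oxidizes the reduced form, and this step ties the pathway to respiration. Downstream enzymes turn UMP into CTP, and ribonucleotide reductase and thymidylate synthase turn ribonucleotides into the precursors of DNA.

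Between 17210404 and 20999927 reads were counted per library. The authors' FPKM (fragments scaled by exon length and by the library's total) gives the level of a gene per length. The change is given as log2(FC), O/A against ethanol, from edgeR's quasi-likelihood test on the counts, with p-values adjusted by Benjamini-Hochberg over the 14893 genes tested. A call needed both an adjusted p-value no higher than 0.05 and a log2(FC) beyond 0.25 in either direction, the thresholds of the study. The basal keratinocyte markers KRT5, KRT14, TP63, ITGA6 and ITGB4 were all detected, with KRT5 falling from 1433 ± 42.9 FPKM (ethanol) to 1128 ± 37.8 FPKM (O/A; SD, n = 4), the one of the 5 that was called. KRT14 had a log2(FC) of -0.09 and TP63 of -0.05, while ITGA6 (0.14) and ITGB4 (0.14) were higher in every O/A library. Of the other cell types looked at, the melanocyte list summed to 1.35 to 1.81 FPKM in ethanol and 1.25 to 1.71 in O/A, mostly from MITF and PMEL, with MLANA and TYR at 0 counts in all 8 libraries. The summed FPKM of the immune list was 0.22 to 0.41 in ethanol and 0.14 to 0.33 in O/A, and the summed FPKM of the fibroblast list was 2.40 to 2.95 in ethanol and 2.42 to 2.63 in O/A, nearly all from COL1A1. The list of differentiated keratinocyte markers summed to 19.5 to 21.3 FPKM in ethanol against 20.7 to 22.0 in O/A. KRT10 was higher and IVL lower after O/A, with KRT1 at 0 counts throughout and FLG at 0 to 3.

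Among the 9 genes, messenger RNAs of UMP synthesis were lower after O/A, whereas those of deoxynucleotide synthesis lay close to their ethanol level. After TMM scaling, which sets the libraries on 1 scale, UMPS fell to 0.590 of the ethanol level, DHODH to 0.671, the uridine kinase UCK2 to 0.721 and CAD to 0.815. CTPS1 had a ratio of 0.887 and was not called. RRM1 was 4.78% lower, TYMS, TK1 and RRM2 differed by less, and none of these 4 was called. Thus 4 of the 9 genes were called, all lower, where 34.7% of all genes tested were called, 18.9% lower and 15.8% higher. By the p-value alone, 6 of the 9 were lower, against 27.7% of all genes tested. For 5 of the 9, every O/A library lay below every ethanol library after scaling, and for 0 every one lay above. Over all genes tested, these separations were found for 24.8% and 22.8%. The median log2(FC) of the 9 genes was -0.17, beside 0.00 for all genes tested. In RNA from whole cultures, fewer cells of a kind and less RNA per cell cannot be told apart.

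**Figure D1:**
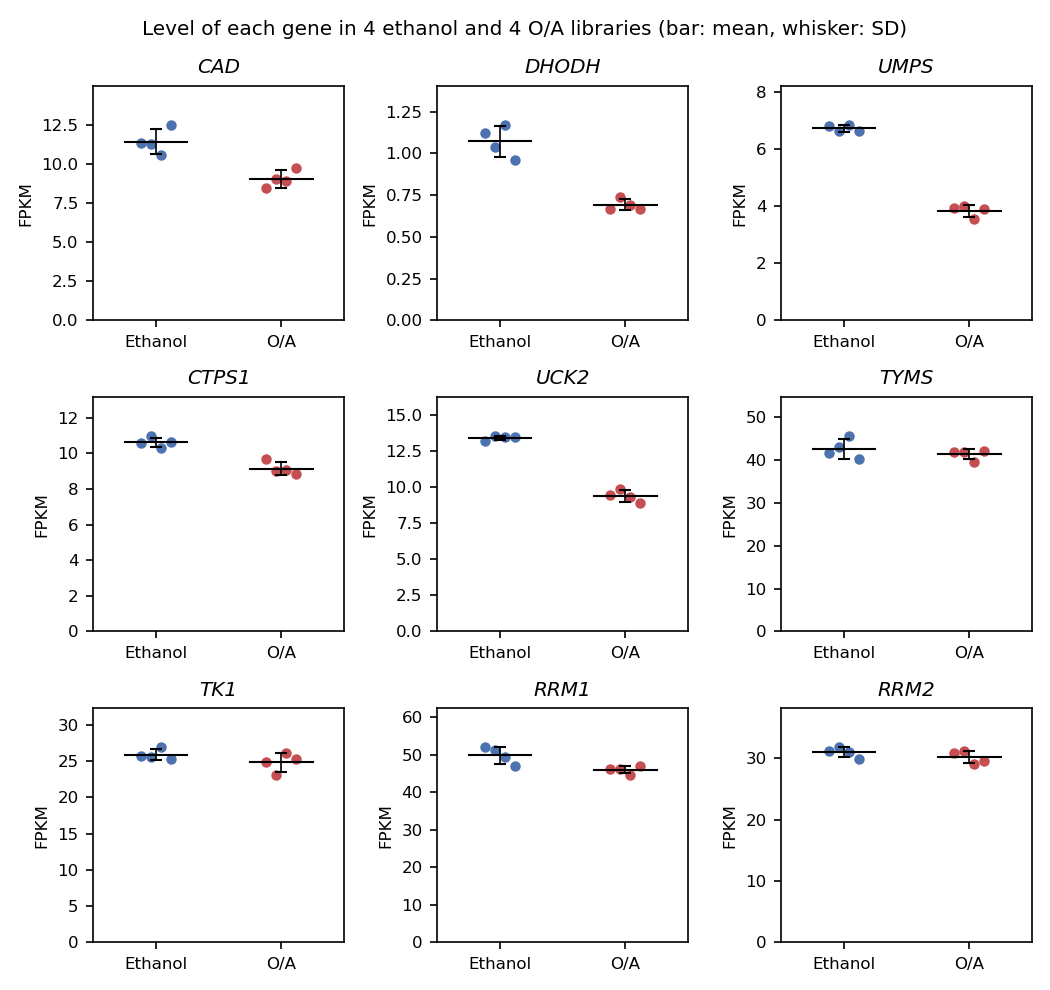
FPKM of each of the 9 genes (vertical axes, each starting at 0) in the 4 ethanol (blue) and 4 O/A (red) libraries, with the mean as a bar and the SD as a whisker. O/A lies below ethanol without overlap for CAD, DHODH, UMPS, CTPS1 and UCK2, and the conditions overlap or touch for TYMS, TK1, RRM1 and RRM2.

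UMPS, which carries out the closing steps from orotate to UMP, changed most. It lies on chromosome 3 of GRCh38 from 124730433 to 124749273. Its level was 6.80, 6.63, 6.85 and 6.65 FPKM in ethanol replicates 1 to 4 and 3.95, 4.01, 3.54 and 3.89 FPKM in O/A replicates 1 to 4. The conditions did not overlap, and the gap between them was far wider than the spread within either. The log2(FC) was -0.76 (standard error 0.048, adjusted p = 2.29e-19, edgeR), resting on 875 to 1049 reads with ethanol and 512 to 567 with O/A. The call held in all 17 alternative analyses at this threshold, with a log2(FC) between -0.81 and -0.68.

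DHODH, the mitochondrial enzyme that oxidizes dihydroorotate to orotate, lies on chromosome 16 from 72008588 to 72027664. It had 1.12, 1.04, 1.17 and 0.96 FPKM in ethanol replicates 1 to 4 and 0.67, 0.74, 0.69 and 0.67 FPKM in O/A replicates 1 to 4. Again no O/A library reached the lowest ethanol library. The log2(FC) was -0.58 (standard error 0.112, 95% interval -0.80 to -0.35, adjusted p = 1.85e-05, edgeR). DHODH was the least expressed of the 9 genes, with 126 to 142 reads with ethanol and 82 to 97 with O/A, and its interval was accordingly the widest. It stayed below ethanol and called in all 16 alternatives at this threshold that could test it.

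CAD joins the opening activities of the pathway, carbamoyl phosphate synthetase, aspartate transcarbamoylase and dihydroorotase, in a single protein. The gene lies on chromosome 2 from 27217369 to 27243943. Ethanol replicates 1 to 4 had 11.35, 11.28, 10.54 and 12.47 FPKM, and O/A replicates 1 to 4 had 8.44, 9.03, 8.88 and 9.76 FPKM. Replicate 4 was the highest of its condition in both. The conditions did not overlap, and the log2(FC) was -0.29 (standard error 0.0489, adjusted p = 3.22e-05, edgeR). CAD lay close to the fold change threshold, and without ethanol replicate 4 its log2(FC) was -0.24, inside it.

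UCK2 phosphorylates uridine and cytidine and so recovers nucleosides instead of building them. It lies on chromosome 1 from 165827614 to 165911618. The ethanol libraries were tightly grouped at 13.24, 13.57, 13.53 and 13.49 FPKM in replicates 1 to 4, against 9.45, 9.91, 9.33 and 8.89 FPKM in O/A. UCK2 was thus called lower like the building route, at a log2(FC) of -0.47 (adjusted p = 4.63e-16, standard error 0.0366, edgeR), and the call held in all 17 alternatives. The first 142 bases of UCK2 overlap TMCO1 on the opposite strand, and whether reads were assigned by strand is not given in the sources used here. TMCO1, with 1971 to 2328 counts per library, had a log2(FC) of 0.03 (adjusted p = 0.501, edgeR).

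CTPS1, which aminates UTP to CTP, lies on chromosome 1 from 40979300 to 41012565. It had 10.56, 10.97, 10.32 and 10.63 FPKM in ethanol replicates 1 to 4 and 9.66, 9.01, 9.05 and 8.82 FPKM in O/A. The conditions did not overlap, but the difference was small, with a log2(FC) of -0.17 (95% interval -0.24 to -0.11, adjusted p = 1.33e-05, edgeR). CTPS1 therefore passed the p-value threshold without passing that of the fold change, and it was not called in any of the 17 alternatives.

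The promoters of UMPS, DHODH and UCK2, the 3 genes with the lowest log2(FC), are shown beside 2 genes of DNA precursor supply that were not called, to let their sequences be compared. They are RefSeq windows of GRCh38.p14 from 250 bases before the annotated start to 50 after it, with matches to 6 short motifs in capitals. The windows are chr3:124730202-124730501 (plus strand) for UMPS, chr16:72008494-72008793 (plus) for DHODH, chr1:165827364-165827663 (plus) for UCK2, chr2:10122489-10122788 (plus) for RRM2 and chr17:78187003-78187302 (minus) for TK1.
UMPS: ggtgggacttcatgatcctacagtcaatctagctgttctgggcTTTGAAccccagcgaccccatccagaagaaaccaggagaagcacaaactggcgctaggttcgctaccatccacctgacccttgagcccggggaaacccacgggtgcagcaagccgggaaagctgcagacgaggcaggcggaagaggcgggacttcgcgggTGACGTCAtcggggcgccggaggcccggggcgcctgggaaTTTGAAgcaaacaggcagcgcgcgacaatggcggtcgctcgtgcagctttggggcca
DHODH: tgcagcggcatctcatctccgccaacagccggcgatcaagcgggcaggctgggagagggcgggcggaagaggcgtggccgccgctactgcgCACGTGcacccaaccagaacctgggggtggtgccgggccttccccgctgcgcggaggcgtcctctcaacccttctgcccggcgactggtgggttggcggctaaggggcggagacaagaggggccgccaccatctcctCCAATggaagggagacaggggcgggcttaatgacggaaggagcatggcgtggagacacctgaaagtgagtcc
UCK2: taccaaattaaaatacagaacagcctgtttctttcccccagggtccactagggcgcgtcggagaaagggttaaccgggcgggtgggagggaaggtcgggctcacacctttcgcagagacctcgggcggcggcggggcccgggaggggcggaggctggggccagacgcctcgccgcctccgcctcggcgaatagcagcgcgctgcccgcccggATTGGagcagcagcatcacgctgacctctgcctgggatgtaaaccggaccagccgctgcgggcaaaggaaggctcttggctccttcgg
RRM2: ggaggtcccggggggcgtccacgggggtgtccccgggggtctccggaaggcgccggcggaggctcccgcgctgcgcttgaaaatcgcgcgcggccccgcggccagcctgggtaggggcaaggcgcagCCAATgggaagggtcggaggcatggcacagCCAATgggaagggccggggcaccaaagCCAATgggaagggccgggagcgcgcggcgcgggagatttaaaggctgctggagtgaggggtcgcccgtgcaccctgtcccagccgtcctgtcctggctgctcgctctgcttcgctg
TK1: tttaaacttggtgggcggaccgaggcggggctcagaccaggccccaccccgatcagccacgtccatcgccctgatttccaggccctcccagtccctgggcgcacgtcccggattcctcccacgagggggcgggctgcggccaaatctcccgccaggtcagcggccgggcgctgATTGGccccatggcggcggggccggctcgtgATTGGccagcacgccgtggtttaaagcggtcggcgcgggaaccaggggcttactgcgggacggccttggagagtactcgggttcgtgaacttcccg

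The motifs were the CCAAT box (CCAAT), the E-box (CACGTG), the cAMP response element (TGACGTCA), the cell cycle homology region (TTTGAA), the E2F site (TTTCGCGC or TTTGGCGC) and the CARE element bound by ATF4 (TGATGCAA). Each was searched on both strands, and no matches overlapped in these windows. All 9 genes matched the RefSeq table, with 12 windows in all. A CCAAT box stood in at least 1 window of 6 genes (CAD, DHODH, UCK2, RRM1, RRM2 and TK1), and 34.6% of all 35116 windows hold one. RRM2 had 3 of them in the window shown and TK1 had 2. UMPS was the one gene of the 9 with a cAMP response element, 47 bases before the start, a motif found in 1.85% of all windows. DHODH was the one gene with an E-box, 159 bases before the start, against 7.26% of all windows. The cell cycle homology letters stood in UMPS and RRM1, against 15.2% of all windows. Neither the E2F letters searched (1.15% of all windows) nor the CARE letters (0.866%) occurred in a window of the 9 genes. Other spellings of the E2F site were not searched, so these windows may still hold one. These matches describe letters in a window and were not tested against the expression values.

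TYMS, TK1, RRM1 and RRM2, the genes of DNA precursor supply in the chosen set, were not called. TYMS, which methylates dUMP to dTMP, had 40.22 to 45.53 FPKM in the ethanol libraries against 39.58 to 42.11 FPKM in the O/A libraries. Its log2(FC) was 0.01 (95% interval -0.07 to 0.08, adjusted p = 0.917, edgeR). TYMS lies on chromosome 18 from 657653 to 673578, and 3261 bases of its locus overlap ENOSF1 on the opposite strand, which had 479 to 662 counts per library and a log2(FC) of 0.15 (adjusted p = 0.0301, edgeR). TYMSOS, also on the opposite strand, shares 698 bases with TYMS and had 11 to 30 counts per library. TK1, the S-phase thymidine kinase, is found on chromosome 17 (78174091 to 78187233). Its level was 25.22 to 26.93 FPKM with ethanol against 23.02 to 26.05 with O/A, and the log2(FC) was -0.01 (95% interval -0.10 to 0.08, adjusted p = 0.833, edgeR). For both genes the libraries of the 2 conditions overlapped, and the intervals reach no further than -0.10 and 0.08.

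Ribonucleotide reductase, which turns ribonucleotides into deoxyribonucleotides, pairs a large subunit (RRM1) with a small subunit (RRM2). RRM2, on chromosome 2 from 10120698 to 10211725, had 31.21, 31.82, 31.02 and 29.89 FPKM in ethanol replicates 1 to 4 and 30.82, 31.17, 29.04 and 29.59 FPKM in O/A. Its log2(FC) was 0.01 (95% interval -0.05 to 0.06, adjusted p = 0.861, edgeR). RRM1, on chromosome 11 from 4094707 to 4138932, had 46.89 to 51.99 FPKM in the ethanol libraries against 44.59 to 46.89 FPKM in the O/A libraries. The conditions touched at 46.89 FPKM, and the log2(FC) was -0.07 (95% interval -0.13 to -0.01, adjusted p = 0.0428, edgeR). The adjusted p of RRM1 ranged from 0.000873 to 0.294 over the alternatives, on both sides of the threshold, while its log2(FC) stayed between -0.12 and -0.04. The signs of TYMS, TK1 and RRM2 changed with the scaling or with the library left out, and no direction is given for them.

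By level per length, the order in ethanol was RRM1 (49.9 FPKM), TYMS (42.6), RRM2 (31.0), TK1 (25.9), UCK2 (13.5), CAD (11.4), CTPS1 (10.6), UMPS (6.73) and DHODH (1.07). Neighbours in this order did not overlap across the 4 libraries, except CAD and CTPS1. In O/A the order was the same down to UCK2 (9.40 FPKM), followed by CTPS1 (9.13), CAD (9.03), UMPS (3.85) and DHODH (0.693). There UCK2, CTPS1 and CAD overlapped with their neighbours and could not be ranked. The rank of RRM2 below RRM1 rests on the annotated exon length, 9153 bases for RRM2 and 4233 for RRM1, since RRM2 drew more counts (4801 to 5745 per library) than RRM1 (3459 to 4168).

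Of the 30 other genes of pyrimidine and deoxynucleotide metabolism that were listed, 27 were tested, 3 were called higher, 3 lower and 21 not called, with a median log2(FC) of -0.07. The largest change belonged to UPP1, uridine phosphorylase, which splits uridine into uracil and a sugar phosphate. UPP1 rose from 50.5 ± 0.613 FPKM with ethanol to 177.8 ± 5.40 FPKM with O/A (SD, n = 4), a 3.63-fold increase after TMM scaling (log2(FC) 1.86, standard error 0.0268, adjusted p = 8.71e-47, edgeR). Among the other 9 genes of nucleoside uptake and salvage, SLC29A1, an equilibrative nucleoside transporter, fell from 6.88 ± 0.106 to 4.86 ± 0.386 FPKM (log2(FC) -0.46), and 8 were not called. CDA and DCTD, deaminases of cytidine and deoxycytidylate, had a log2(FC) of 0.02 and -0.002, with signs that changed between analyses.

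RRM2B, the alternative small subunit of ribonucleotide reductase and a p53 target, rose from 19.3 ± 0.503 to 27.0 ± 0.763 FPKM (SD, n = 4), or 0.53 as log2(FC) (adjusted p = 4.29e-20, standard error 0.0318, edgeR). Within its list of 6 genes of deoxynucleotide pool control and the folate cycle, DCTPP1, which hydrolyses dCTP, fell from 28.1 ± 0.661 to 22.4 ± 0.630 FPKM (log2(FC) -0.29) and 4 were not called. DUT, which removes dUTP, had a log2(FC) of -0.07. Of the 7 genes of CTP synthesis and nucleotide kinases, CTPS2, the partner isoform of CTPS1, was called lower at -0.29 and 6 were not called, among them CMPK1 (0.08) and NME1 (-0.09). NME1 stands next to its close copy NME2, so how their reads were split is uncertain. CTPS2 was inside the threshold, at -0.24, without O/A replicate 1. Of the 7 genes of pyrimidine breakdown, 4 were tested and NT5C3A, a nucleotidase of pyrimidine monophosphates, was called higher at 0.31 (0.245, inside the threshold, on log2(FPKM + 1)), while NT5C had 0.09 and TYMP 0.01. DPYS, UPB1 and NT5M were too low to be tested, with 0 to 2, 0 to 2 and 0 to 9 counts per library.

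**Figure D2:**
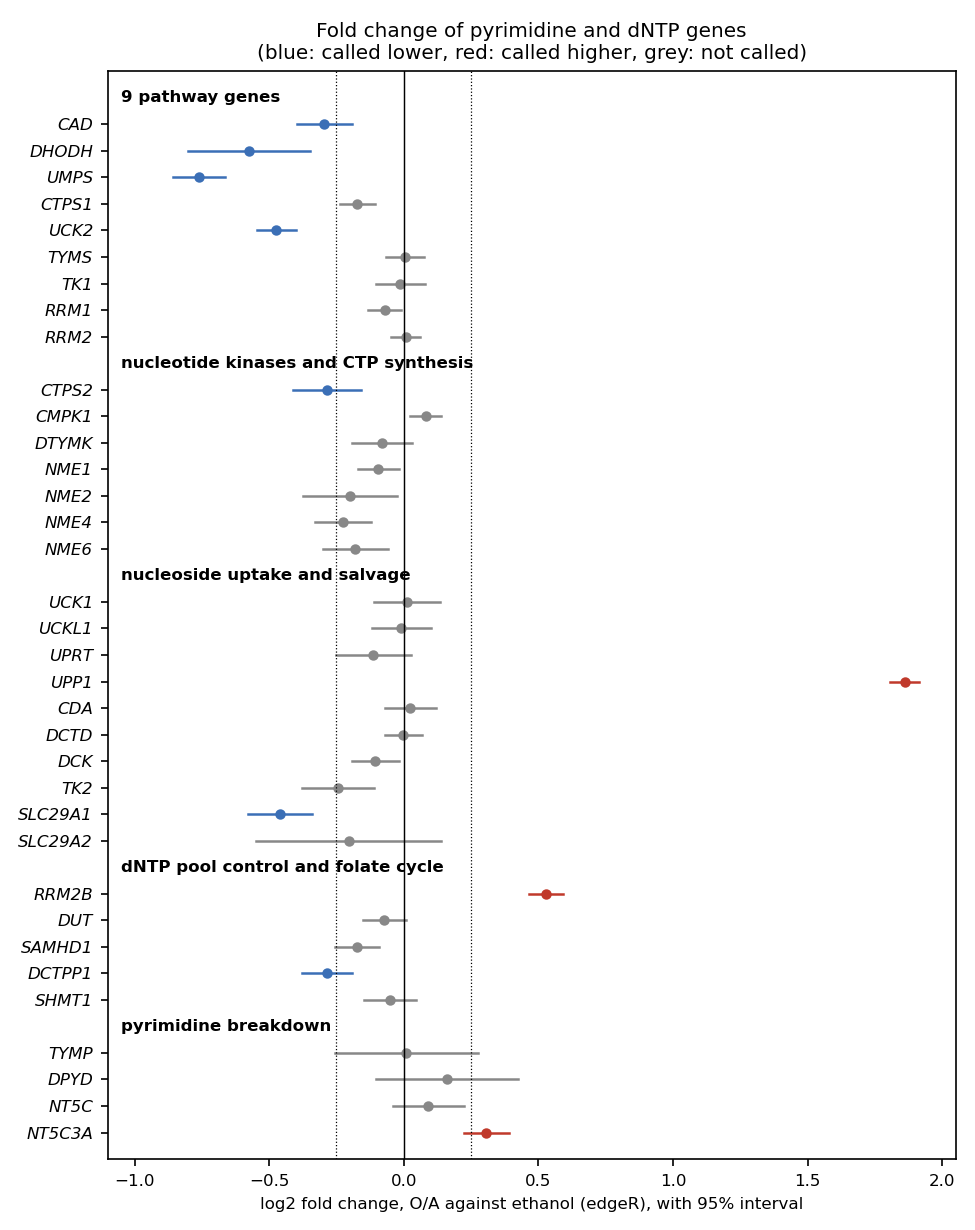
Log2 fold change of O/A against ethanol (horizontal axis, edgeR) with its 95% interval for the 9 genes and 26 of the 27 other pathway genes tested, grouped by role and coloured by call (blue lower, red higher, grey not called), where dotted lines mark the threshold of 0.25. UPP1 at 1.86 and RRM2B at 0.53 lie to the right, and UMPS at -0.76 lies farthest to the left.

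Ratios of partner genes within a library, in which the library scale cancels, compare 7 pairs directly. The RRM2B to RRM2 ratio of FPKM was 0.614, 0.592, 0.624 and 0.670 in ethanol replicates 1 to 4 and 0.898, 0.855, 0.951 and 0.883 in O/A. Every O/A library lay above every ethanol library (exact two-sided permutation test, p = 0.0286, adjusted p = 0.0667 over 7 ratios). The UCK2 to UCK1 ratio was 1.60 ± 0.0979 in ethanol against 1.15 ± 0.102 in O/A (SD, n = 4, the same exact permutation p and adjusted p), and UCK1, the other uridine-cytidine kinase, had a log2(FC) of 0.01. The TK1 to TK2 ratio, of the cytosolic over the mitochondrial thymidine kinase, was 12.4, 12.5, 13.8 and 13.4 in ethanol replicates 1 to 4 and 14.9, 15.2, 15.0 and 15.9 in O/A. It gave the same p and adjusted p by the exact permutation test, with TK2 at a log2(FC) of -0.24, not called here and called lower in 6 of 17 alternatives. None of the 7 ratios passed after adjustment, and 0.0286 is the smallest p possible with 4 values in each condition. With 0.1 or 1 added to each FPKM, these 3 ratios and that of DHODH to UMPS reached an adjusted p of 0.05 and passed. The log2 difference of DHODH to UMPS then grew from 0.181 to 0.230 and 0.383, as the added value shrinks the change of DHODH. Without DHODH to UMPS at the smallest p, as with nothing added, these 3 ratios stayed at 0.0667.

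The other 4 ratios overlapped between the conditions. The RRM2 to RRM1 ratio was 0.622 ± 0.0157 in ethanol and 0.656 ± 0.0190 in O/A (SD, n = 4, exact permutation p = 0.0571, adjusted p = 0.0800). The DHODH to UMPS ratio was 0.159 ± 0.0114 and 0.180 ± 0.0117, with the same exact permutation values at n = 4. The DHODH to CAD ratio was 0.0947 ± 0.0142 and 0.0769 ± 0.00579 (exact permutation p = 0.114, n = 4, adjusted p = 0.133). The CTPS1 to CTPS2 ratio was 2.40 ± 0.194 and 2.61 ± 0.276 (exact permutation p = 0.286, n = 4, adjusted p = 0.286).

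**Figure D3:**
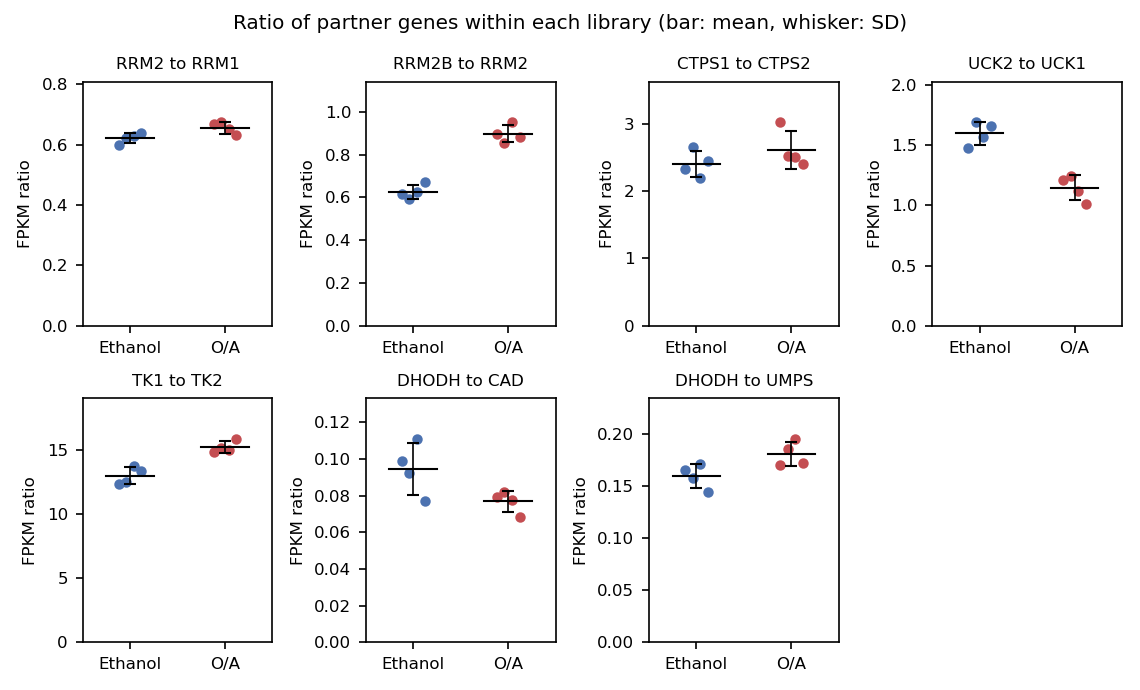
FPKM ratio of 7 gene pairs within each library (vertical axes start at 0), with ethanol in blue and O/A in red, the mean as a bar and the SD as a whisker. RRM2B to RRM2, UCK2 to UCK1 and TK1 to TK2 separate the 2 conditions without overlap, and the other 4 ratios overlap.

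Many genes of this pathway follow the cell cycle, so markers of its phases are given beside them. Of 14 S-phase markers, 10 were called lower and 0 higher, with a median log2(FC) of -0.28 and a summed level of 392.9 to 410.0 FPKM with ethanol and 308.5 to 327.1 with O/A. CCNE2, a cyclin of the G1/S transition, had a log2(FC) of -0.80, the flap endonuclease FEN1 -0.52, the licensing factor CDT1 -0.44 and the helicase subunit MCM2 -0.41. MCM7 (-0.13) and CDC6 (0.248) passed the p-value threshold and were not called. CDC6 stayed uncalled in 11 of 17 alternatives and was called higher in the rest. Of 10 markers of G2 and mitosis, 9 were called lower, with a median of -0.82 and a summed level of 302.9 to 313.8 FPKM with ethanol and 172.1 to 178.6 with O/A. The mitotic kinase PLK1 had a log2(FC) of -1.37, the cyclins CCNB1 -1.03 and CCNA2 -0.92, and the anaphase activator CDC20 -0.95, while CDK1 (-0.23) was not called, though it was called lower in 4 of 17 alternatives. The part of these cell cycle markers in the change of the 9 genes was not tested.

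Of 13 regulators with known links to the pathway, 3 were called higher, 5 lower and 5 not called. E2F7, an E2F family repressor, rose from 15.7 ± 0.989 to 50.7 ± 0.639 FPKM (log2(FC) 1.73), and ATF4, the effector of the integrated stress response, rose from 92.8 ± 2.44 to 261.7 ± 4.00 FPKM (log2(FC) 1.54; SD, n = 4). Cyclin D1 (CCND1), which starts the release of E2F factors, fell from 80.5 ± 1.12 to 39.4 ± 0.308 FPKM (log2(FC) -0.99), and E2F2, an activator, fell from 0.948 ± 0.0943 to 0.557 ± 0.0275 FPKM (log2(FC) -0.72). The other E2F genes of the list did not share a direction. Another repressor and another activator were called lower. A further activator was not called but was higher in every O/A library. TFDP1, the partner of E2F factors, had a log2(FC) of -0.12, and the retinoblastoma gene RB1 one of 0.03.

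**Figure D4:**
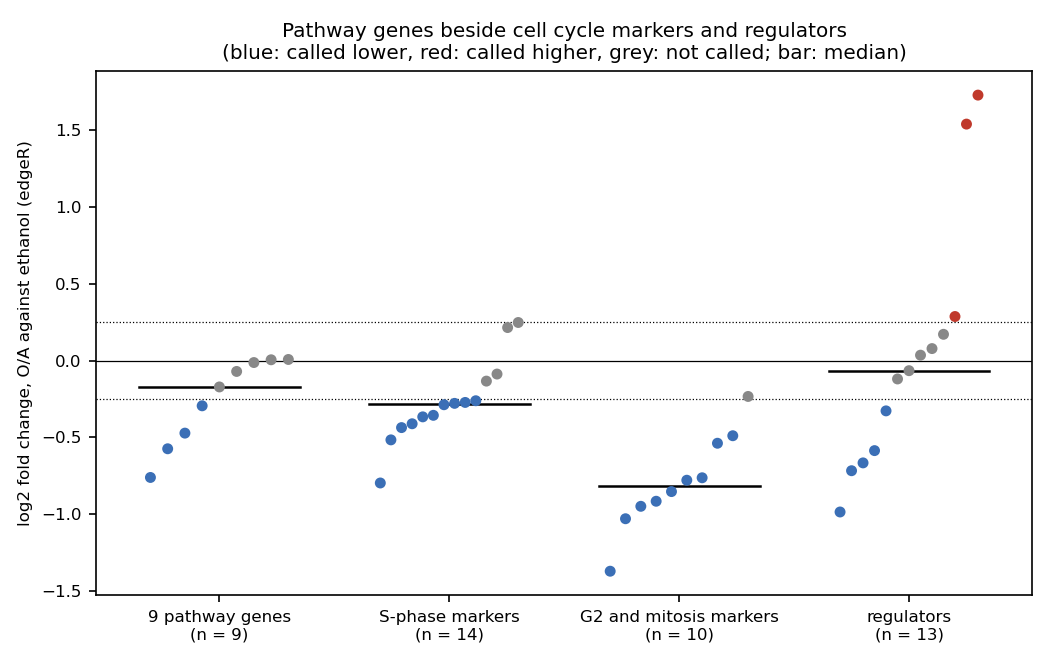
Log2 fold change of O/A against ethanol (vertical axis, edgeR) for each gene of 4 groups, coloured by call (blue lower, red higher, grey not called), with the median of each group as a bar and dotted lines at the threshold of 0.25. The medians are -0.17 for the 9 pathway genes, -0.28 for the S-phase markers, -0.82 for the G2 and mitosis markers and -0.07 for the regulators.

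For UMPS, the gene with the largest change, the most similar patterns over the 8 libraries (Pearson's r of log2 scaled counts among all genes tested) were those of UHRF1 (r = 0.9987), MYC (r = 0.9985) and PRPF6 (r = 0.9982). These values describe 2 tight clusters of libraries, since the gap between ethanol and O/A sets most of each r. UHRF1, which maintains DNA methylation, fell from 14.3 to 8.18 FPKM. MYC, a transcription factor known to bind promoters of nucleotide synthesis genes, fell from 42.8 to 26.1 FPKM, a log2(FC) of -0.67 (adjusted p = 2.57e-25, edgeR). PRPF6, a splicing factor, fell from 42.4 to 32.4 FPKM.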

How the data were processed

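The authors aligned cleaned paired-end reads of oligo(dT)-selected RNA to GRCh38.p13 with HISAT2 2.0.1 and counted them per Ensembl gene with HTSeq 0.6.1. The deposited count values are not normalized. The deposited FPKM values were within 0.005 of the count divided by exonic length and library total. The Ensembl release and the strand setting are not given in the sources used here. The authors' own DESeq2 comparison, with fold changes and p-values, was not used.

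Conditions and replicate numbers came from the sample titles, and the time of treatment from the study's description of the comparison. Testing was limited to the 14893 genes that reached 10 counts in 4 or more libraries, with edgeR 4.0.16 in R 4.3.3 (TMM scaling, robust quasi-likelihood test, standard error from log2(FC) and F). Ratios were compared by exact permutation. In data simulated from these libraries, 200 of 14893 genes were changed, and recovery was scored by the adjusted p-value alone. There edgeR recovered 91 of 100 genes changed by 1 log2 unit and 74 of 100 changed by 0.5, with 13 false calls. In the real data 34.7% of genes were called, with a fold change threshold as well, so these rates do not carry over to those calls. Libraries of 1 condition differed by more than sampling noise (chi-square per degree of freedom 1.81 to 6.19), so none was a copy.

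The alternatives were DESeq2 1.42.0, 3 other scalings, no low-count filter, a mean FPKM of at least 1, limma 3.58.1 on log2(FPKM + 0.1) and log2(FPKM + 1), other fold change thresholds, the replicate number as a block, and each library left out in turn. Beside the 9 genes and the ratio partners, the genes named were up to 4 called genes with the largest change and up to 2 uncalled genes with the highest FPKM per list, the 3 genes most like UMPS, and tested genes that overlap one of the 9. Overlapping genes too low to be tested are not named. The 9 genes and all lists were chosen with earlier results of these data known. The symbol LOR of the differentiated keratinocyte list found no unambiguous match. Many other listed genes are counted without being named. Apart from this rule, 2 genes of the lists were set aside from naming, 1 of them also left out of the plot of fold changes.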

Additional observations from a re-analysis of the deposited data

Results flagged for a closer look

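For 2 of the 98 sets of 4 values examined, a single value stood far apart. Chance alone gives about 1 in 20 sets, or 4.9. Neither belongs to the 9 genes. On the scale of TMM-scaled CPM (counts relative to library size), NT5C3A reached 53.5 in ethanol replicate 2 while the other ethanol values ran from 51.3 to 51.6. PLK1 reached 31.8 in O/A replicate 1 while the remaining O/A values ran from 27.5 to 27.8.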

How the results depend on the processing

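The 4 calls among the 9 genes held in the alternatives with the same fold change threshold that could test them, except CAD without ethanol replicate 4 (-0.24), and DHODH was below the filter of 1 mean FPKM. With each library left out, 3 to 4 of the 9 were called. At an absolute log2(FC) above 1, 0 of the 9, 797 of all genes and 5 of the genes in the other 7 lists were called, against 4, 5165 and 33. Without a fold change threshold 7999 of all genes were called. The median log2(FC) of all genes moved to -0.046 on library totals (1969 called higher, 3287 lower) and -0.043 on log2(FPKM + 0.1) (1945 and 3179), against 2350 and 2815. Directions changed only for genes near 0, and the cause was not tested. On upper-quartile scaling, library totals, log2(FPKM + 0.1) and log2(FPKM + 1), in this order, the log2(FC) was -0.028, -0.040, -0.041 and -0.040 for TYMS, -0.026, -0.039, -0.039 and -0.038 for RRM2, -0.0084, -0.021, -0.024 and -0.023 for CDA, -0.023, -0.035, -0.047 and -0.025 for TYMP, and -0.022, -0.035, -0.035 and -0.032 for UCK1. RB1 had -0.011, -0.012 and -0.012 on the last 3 of these. Without a filter TYMS had -0.00023. DCTD had 0.0051 under DESeq2 and 0.0052 with median-ratio scaling. With each library left out the log2(FC) ranged from -0.015 to 0.042 for TYMS, -0.033 to 0.034 for TK1, -0.0038 to 0.029 for RRM2, -0.026 to 0.071 for CDA, -0.019 to 0.028 for DCTD, -0.096 to 0.112 for TYMP and -0.019 to 0.049 for UCK1.

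The adjusted p of some ratios went from 0.0667 or 0.0800 to 0.05, and so passed, with a pseudocount, because 4 ratios then reached the smallest p. The log2 differences with FPKM + 0.1 and FPKM + 1 were 0.52 and 0.5 for RRM2B to RRM2, -0.479 and -0.445 for UCK2 to UCK1, 0.213 and 0.127 for TK1 to TK2, and 0.230 and 0.383 for DHODH to UMPS. DHODH to CAD turned to 0.016 with FPKM + 1, which shrinks the change of a gene near 1 FPKM. The same shrinking of DHODH raised the difference of DHODH to UMPS above its 0.181 without a pseudocount.

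The main fit did not pair libraries by replicate number, and whether same-numbered ones belong together is not given in the sources used here. Deviations of same-numbered libraries correlated at 0.0798, -0.000462, -0.0513 and 0.147. Differently numbered ones were not compared, so these values cannot settle the pairing. In the fit with the replicate number as a block, 4 of the 9 genes and 5160 of all genes were called, and TYMP turned to -0.0026. By pairs no ratio could pass, since 4 pairs cannot reach the threshold. Leaving out a library leaves 4 against 3, where the smallest exact p is 0.0571, so the ratios were then compared by value alone. Depth limits the least expressed genes, and for DHODH the 95% interval spans -0.80 to -0.35.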
